A study of Mus musculus with 8 samples.

Results

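The genes examined here encode proteins that shape the mitochondrion around its fusion and fission GTPases. They comprise the Drp1 adaptors Mff, Mief1 and Mief2, the OPA1-processing proteases Oma1 and Yme1l1, and the MICOS subunits Immt, Chchd3, Chchd6, Apoo and Apool. The 10 genes were chosen by symbol from the 43346 genes of the count table, for the roles of their proteins and with earlier results of these data known. Each symbol matched 1 gene, and all 10 passed the filter on low counts, as did 16111 genes in all.

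The libraries were made from the cardiac ventricles of 8 male C57BL/6 mice, which carried no genetic modification named in the labels. At 7 weeks of age, 4 mice received 1000000 LLC1 cells under the skin of the left flank and 4 received PBS vehicle. Hearts were taken at day 14. LLC1 is a single established line of Lewis lung carcinoma from the same mouse strain, so the tumor arm stands for 1 tumor at 1 time. Each mouse gave 1 library. The LLC1 mice are called LLC1-2, LLC1-3, LLC1-5 and LLC2-2 and the PBS mice PBS1-1, PBS1-3, PBS2-1 and PBS2-5, and values for single mice are given in this order. Levels are given as CPM, the TMM-scaled counts per 1000000 counts of a library, and differences are log2 fold changes of LLC1 over PBS mice from edgeR's quasi-likelihood test. FDR is the p-value of that test, adjusted by Benjamini and Hochberg's method across the 16111 genes, and a gene was called at an FDR under 0.05. The p-values measure the spread between these 8 mice.

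As background, the fission GTPase Drp1 (gene Dnm1l) is cytosolic and is drawn to the mitochondrial outer membrane by Mff and by the proteins of Mief1 and Mief2, where it constricts the organelle. At the inner membrane, OPA1 fuses membranes and holds cristae in shape, and its long and short forms are set by cleavage through Oma1 and Yme1l1. The MICOS complex sits at crista junctions, the narrow necks where cristae meet the inner boundary membrane, and the ventricle, which depends on oxidative phosphorylation, is densely packed with cristae.

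In the ventricles of the tumor-bearing mice, the mRNA levels of these genes lay close to those of PBS-injected mice. None of the 10 was called in either direction, whereas 663 of all genes tested (4.12%) were called higher and 743 (4.61%) lower. Genes called higher made up 47.2% of all calls, against 22.1% with scaling to total counts only and 61.2% with gene length offsets. With edgeR, 0 of the 10 also had an unadjusted p under 0.05, as had 0 with DESeq2 and 0 with limma-voom, beside 4103 of all genes (25.5%) with edgeR. The LLC1 and PBS values overlapped for each of the 10 genes. Over all genes, every LLC1 mouse lay above every PBS mouse for 1433 genes (8.89%) and below for 1333 genes (8.27%). Of the 10 log2 fold changes, 7 were above 0 and 3 below, beside 47.9% of all genes above 0, and the median was 0.06 against -0.01 over all genes tested. With scaling to total counts only, 5 of the 10 lay above 0 and their median was 0.00092. Without PBS1-1, 9 of the 10 lay above 0 (median 0.046), and 6 or 7 did without any other single mouse. With a mouse left out, the medians ran from 0.010 (without PBS2-5) to 0.055 (without PBS1-3). The median size of the change was 0.07 on the log2 scale, against 0.15 over all genes. The 95% intervals of the fold changes ran from 0.827 at the lowest bound to 1.24 at the highest, so larger changes lay outside the interval of each gene. In the exact two-sided permutation test of the 4 against 4 mice the p-values ran from 0.143 to 0.914, where 0.0286 is the smallest that this design allows.

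**Figure D1:**
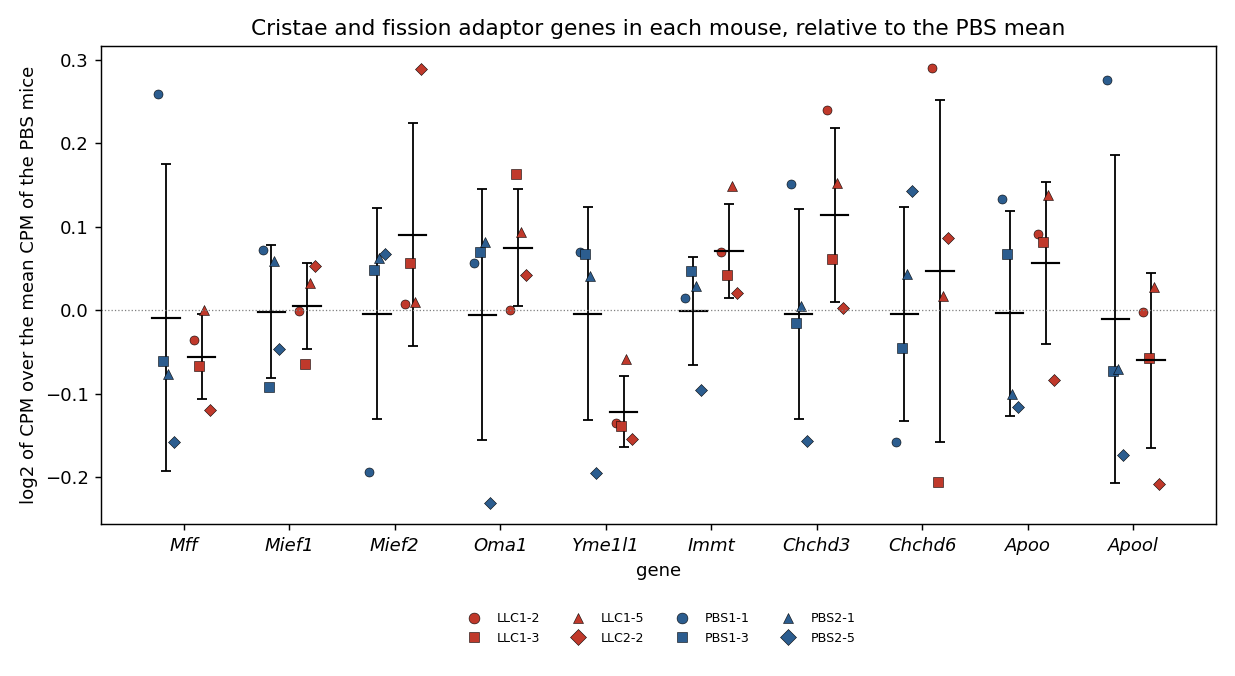
Log2 of the CPM of each mouse over the mean CPM of the 4 PBS mice (y axis) for each gene (x axis). Points are mice (blue PBS, red LLC1), horizontal bars are means and whiskers are SDs over 4 mice. The red and blue points overlap for each of the 10 genes, and PBS1-1 stands at the top of the PBS mice for Mff, at 137 CPM, and for Apool, at 48.1 CPM.

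Counts per library ran from 12480706 to 19747596, so that 1 CPM stood for 11.66 to 19.88 counts, and the 10 genes had from 96 counts (Chchd6 in PBS1-1) to 11821 counts (Immt in LLC1-5). The biological coefficient of variation over all genes was 0.109. The first principal component held 31.5% of the variance and separated the groups, and the second held 25.2% and separated PBS1-1 from the other 7 mice. PBS1-1 also differed most from its own group, with a mean chi-square per gene of 59.7 to 87.9 against the other PBS mice, which differed from each other by 7.38 to 11.0, while pairs of LLC1 mice differed by 4.55 to 16.02. The PBS1-1 library had the fewest counts and the lowest TMM factor (0.935). Its top gene was Yam1, with 4.69% of counts, where that of the other 7 mice was Myh6. Among the 10 genes, PBS1-1 was the highest PBS mouse for 6 and the lowest for 2, so values without it are given below wherever they differ in sign.

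The markers were those of ventricular muscle. The 8 cardiomyocyte markers summed to 98690 to 105200 CPM in the LLC1 mice and 89090 to 92240 CPM in the PBS mice, with no overlap, and 1 of them, Myh6, was called higher. Among the 4 atrial markers, Sln and Bmp10 were at or near 0 and the sum stayed at 4.414 CPM or less, and the 5 skeletal muscle markers summed to 2.594 CPM or less. For other cell types, 1 of 5 endothelial, 3 of 5 fibroblast, 2 of 5 macrophage and 3 of 4 cycling cell genes were called lower in the LLC1 mice, and 0 of 5 smooth muscle and pericyte genes were called. The summed levels of LLC1 against PBS mice were 732.6 to 865.8 against 848.3 to 1136 CPM for endothelial cells, 918.8 to 1028 against 1005 to 1486 for fibroblasts, 193.4 to 229.0 against 220.8 to 325.7 for macrophages, 716.1 to 789.4 against 819.0 to 961.6 for smooth muscle and 2.041 to 4.486 against 13.42 to 42.26 for cycling cells. Of 4 neutrophil markers, S100a8 and S100a9 were called higher at a summed level of at most 3.161 CPM, and red cell markers (0 of 5 called) overlapped at 1428 to 5180 against 1556 to 3097 CPM. Adipocyte markers summed to 1.969 CPM or less and T and B cell markers to 1.707 CPM or less, and none of these was tested. In this bulk tissue, fewer cells of a type and less RNA per cell cannot be told apart, and the part of the cell mixture in the values below was not tested.

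Mff, which encodes the main outer membrane receptor for Drp1 (chromosome 1, 82724890 to 82752394, mm10), was measured at 111, 109, 114 and 105 CPM in the LLC1 mice and 137, 109, 108 and 102 CPM in the PBS mice. PBS1-1 alone stood above the others, and the remaining 7 mice lay between 102 and 114 CPM. The means were 110 ± 3.83 CPM in LLC1 and 114 ± 15.3 CPM in PBS mice (SD, n = 4 each), a log2 fold change of -0.05 (SE 0.09, edgeR FDR = 0.738), with a 95% interval of 0.847 to 1.10 for the fold. Without PBS1-1 the sign turned, to 0.04 (SE 0.06, edgeR FDR = 0.689). The exons of Mff share 195 bases with the opposite-strand gene C430014B12Rik, which had 230 counts in PBS1-1 and 42 to 73 in the other mice. The library kit does not mark strand, so reads in that stretch cannot be assigned to either gene.

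Mief1 and Mief2 encode related outer membrane adaptors, also called MiD51 and MiD49, that bind Drp1 independently of Mff. Mief1 (chromosome 15, 80234080 to 80253366) stood at 29.1, 27.9, 29.8 and 30.2 CPM in the LLC1 mice and 30.6, 27.3, 30.4 and 28.2 CPM in the PBS mice. The groups covered almost the same range, and the log2 fold change was 0.01 (SE 0.07, edgeR FDR = 0.964). The 95% interval of its fold was 0.905 to 1.12. Mief2 (chromosome 11, 60728398 to 60732951) was at 44.8, 46.4, 44.9 and 54.4 CPM in the LLC1 mice and at 39.0, 46.1, 46.6 and 46.7 CPM in the PBS mice. One mouse of each group stood apart, LLC2-2 above and PBS1-1 below, and the other 6 lay within 44.8 to 46.7 CPM. The log2 fold change of Mief2 was 0.09 (SE 0.09, edgeR FDR = 0.524) and was 0.04 without PBS1-1 and 0.02 without LLC2-2.

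Oma1, a zinc metalloprotease of the inner membrane that cleaves OPA1 when the membrane potential is lost (chromosome 4, 103313812 to 103371868), was measured at 33.3, 37.3, 35.6 and 34.3 CPM in the LLC1 mice. Its levels in the PBS mice were 34.7, 35.0, 35.3 and 28.4 CPM. PBS2-5 was lowest of all 8 mice. Oma1 had a log2 fold change of 0.08 (SE 0.08, edgeR FDR = 0.591), and 0.0019 (SE 0.07, edgeR FDR = 0.990) without PBS2-5.

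Yme1l1, the inner membrane AAA protease that cleaves OPA1 constitutively (chromosome 2, 23156369 to 23199260), was at 71.4, 71.2, 75.2 and 70.4 CPM in the LLC1 mice and at 82.3, 82.1, 80.6 and 68.5 CPM in the PBS mice. The 4 LLC1 mice lay below 3 of the PBS mice and above PBS2-5. Means were 72.0 ± 2.16 and 78.4 ± 6.64 CPM, a log2 fold change of -0.12 (SE 0.07, edgeR FDR = 0.309), the lowest FDR of the 10 genes. With PBS2-5 left out the log2 fold change was -0.19 (SE 0.06, edgeR FDR = 0.0618, unadjusted p = 0.00753) and Yme1l1 was not called. This was the lowest FDR of any of the 10 genes under any alternative tried.

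The ratio of the 2 proteases within each mouse does not change when all counts of a library are scaled by 1 factor, though a correction that differs between genes does change it. Oma1 counts were 0.467, 0.525, 0.473 and 0.487 of the Yme1l1 counts in the LLC1 mice, and 0.421, 0.426, 0.437 and 0.415 in the PBS mice. Every LLC1 mouse lay above every PBS mouse, and PBS2-5, which was low for both genes, fell in with its group. The mean log2 ratio was -1.04 ± 0.08 in LLC1 and -1.24 ± 0.03 in PBS mice (SD, n = 4 each), a difference of 0.20 with an SE of 0.04 between mice. Counting error alone gave an SE of 0.07 to 0.09 for the log2 ratio of a single mouse, more than the SD of the PBS mice. The SE of 0.04 rests in part on that small SD and is likely too low. With gene length offsets (the deposited lengths are 2144 bases for Oma1 and 8009 for Yme1l1) the fitted log2 fold changes were 0.08 and -0.03, and their difference was 0.11 in place of 0.20. The Oma1 to Yme1l1 ratio was 1 of 6 computed, the only one without overlap, and it was not tested. Among single genes, 8.89% had every LLC1 mouse above every PBS mouse and 8.27% below. The share over other pairs of genes was not computed.

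**Figure D2:**
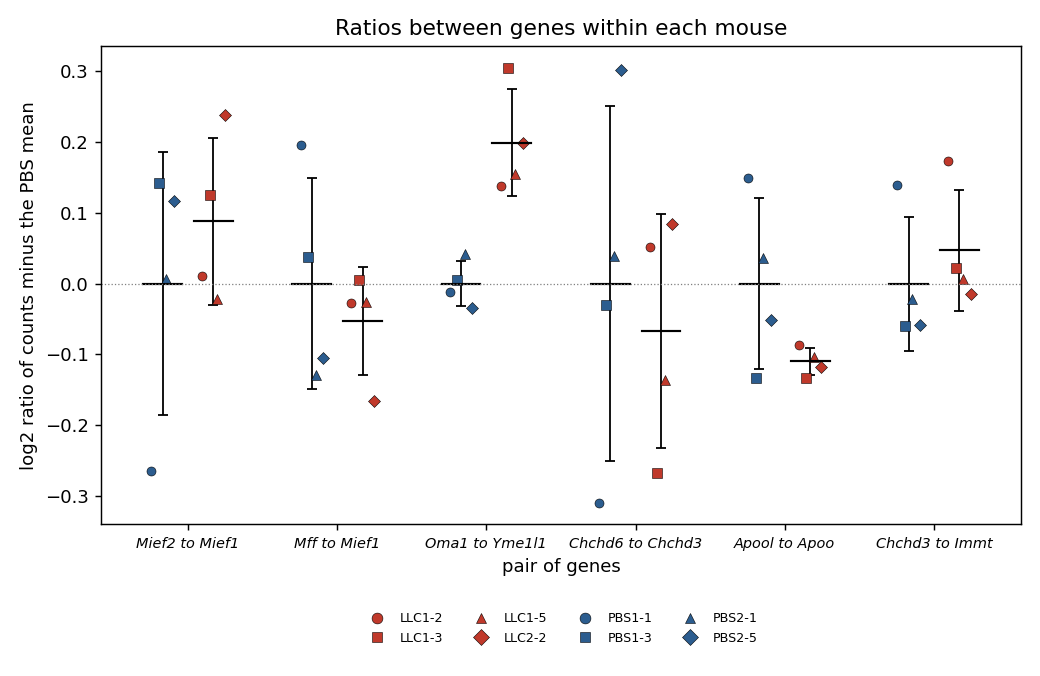
Log2 ratio of the counts of each pair of genes in each mouse, minus the mean of the 4 PBS mice (y axis), for 6 pairs (x axis). Points are mice (blue PBS, red LLC1), horizontal bars are means and whiskers are SDs over 4 mice. The red points lie above all blue points for Oma1 to Yme1l1, where the means differ by 0.20, and the groups overlap for the other 5 pairs.

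The other 5 ratios overlapped between the groups. Mff counts were 3.47 to 3.91 times those of Mief1 in LLC1 mice and 3.56 to 4.46 times in PBS mice, with PBS1-1 highest. Mief2 counts were 1.505 to 1.80 times those of Mief1 in LLC1 mice and 1.27 to 1.68 times in PBS mice, with PBS1-1 lowest. Among the MICOS pairs, the mean log2 ratio differed between the groups by 0.05 for Chchd3 to Immt and by -0.07 for Chchd6 to Chchd3. Both were smaller than the SD of either group. For Apool to Apoo the difference was -0.11, with SDs of 0.02 in LLC1 and 0.12 in PBS mice. There every LLC1 mouse lay below every PBS mouse but PBS1-3, which was lowest of all. The sign of the difference turned for Mff to Mief1 without PBS1-1 and for Chchd6 to Chchd3 without PBS2-5.

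Immt encodes Mic60 (mitofilin), the core of MICOS that bends the membrane at the crista junction (chromosome 6, 71831331 to 71875257). It had the highest CPM of the 10 genes, with 612, 600.0, 647 and 592 CPM in the LLC1 mice and 589, 602, 595 and 546 CPM in the PBS mice. The LLC1 mice reached from within the PBS range to above it. The log2 fold change was 0.07 (SE 0.06, edgeR FDR = 0.498) and the 95% interval of the fold was 0.958 to 1.15.

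Chchd3 encodes Mic19, the coiled-coil-helix subunit that binds Mic60 and links it to the outer membrane (chromosome 6, 32790976 to 33060260). It was measured at 480, 424, 452 and 407 CPM in the LLC1 mice and at 451, 402, 408 and 365 CPM in the PBS mice. LLC1-2 was highest and PBS2-5 lowest, with the values between them mixed. The log2 fold change of 0.12 (SE 0.08, edgeR FDR = 0.375) ranged, with single mice left out, from 0.06 without PBS2-5 (edgeR FDR = 0.615) to 0.17 without PBS1-1 (SE 0.07, edgeR FDR = 0.143).

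Chchd6, the paralog of Chchd3 that encodes Mic25 (chromosome 6, 89383146 to 89595652), was measured at 11.2, 7.97, 9.30 and 9.76 CPM in the LLC1 mice and 8.24, 8.90, 9.48 and 10.2 CPM in the PBS mice. The lowest and the highest value were both from LLC1 mice. With 96 to 194 counts per library it was the least deeply measured of the 10 genes and had the widest interval of the fold, 0.865 to 1.24, around a log2 fold change of 0.05 (SE 0.12, edgeR FDR = 0.825).

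Apoo and Apool, both on the X chromosome, encode Mic26 and Mic27, apolipoprotein-related MICOS subunits that associate with cardiolipin-rich membrane. Apoo (94367117 to 94417093) was at 85.1, 84.5, 87.9 and 75.3 CPM in the LLC1 mice and at 87.6, 83.6, 74.5 and 73.7 CPM in the PBS mice. Each group spanned nearly the same range, and the log2 fold change was 0.06 (SE 0.08, edgeR FDR = 0.662). Apool (112311334 to 112372755) was at 39.7, 38.2, 40.5 and 34.4 CPM in the LLC1 mice and at 48.1, 37.8, 37.8 and 35.2 CPM in the PBS mice. As for Mff, PBS1-1 stood above the remaining mice. The log2 fold change of Apool was -0.05 (SE 0.10, edgeR FDR = 0.774), and its sign turned without PBS1-1, to 0.05 (SE 0.07, edgeR FDR = 0.725).

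The Apoo level carries a limit of its own, because the mouse genome holds a processed copy, Apoo-ps, on chromosome 13. The 586-base transcript of that copy is identical to Apoo in every base and covers part of its coding sequence, from base 348 of the longest Apoo transcript (1218 bases). The first 150 shared bases, the length of 1 read, are printed to show that a read within them matches both genes. In Apoo they lie on the plus strand in 3 exons (chrX:94367501-94367501, chrX:94379926-94380033 and chrX:94382111-94382151), while in the copy they are 1 unbroken block (chr13:107414580-107414729, minus strand), from GENCODE release M21 on mm10.
Apoo and Apoo-ps: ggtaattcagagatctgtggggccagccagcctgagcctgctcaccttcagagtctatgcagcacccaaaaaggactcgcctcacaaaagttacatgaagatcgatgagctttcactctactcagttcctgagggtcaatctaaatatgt
Apoo-ps, named after its values were seen, had 162 to 263 counts per library, against 1021 to 1606 for Apoo. Its own log2 fold change was -0.13 (SE 0.16, edgeR FDR = 0.659), with 12.99 ± 1.35 CPM in LLC1 and 14.3 ± 3.76 CPM in PBS mice. When the counts of both genes were added, the log2 fold change of Apoo was 0.03 (SE 0.08, edgeR FDR = 0.838). Of the other genes, Immt shares 1.63% of its annotated exon bases with the opposite-strand gene Gm44771 and Mief1 shares 2.63% with the same-strand gene AC140267.1, and neither of those genes was analysed here.

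**Figure D3:**
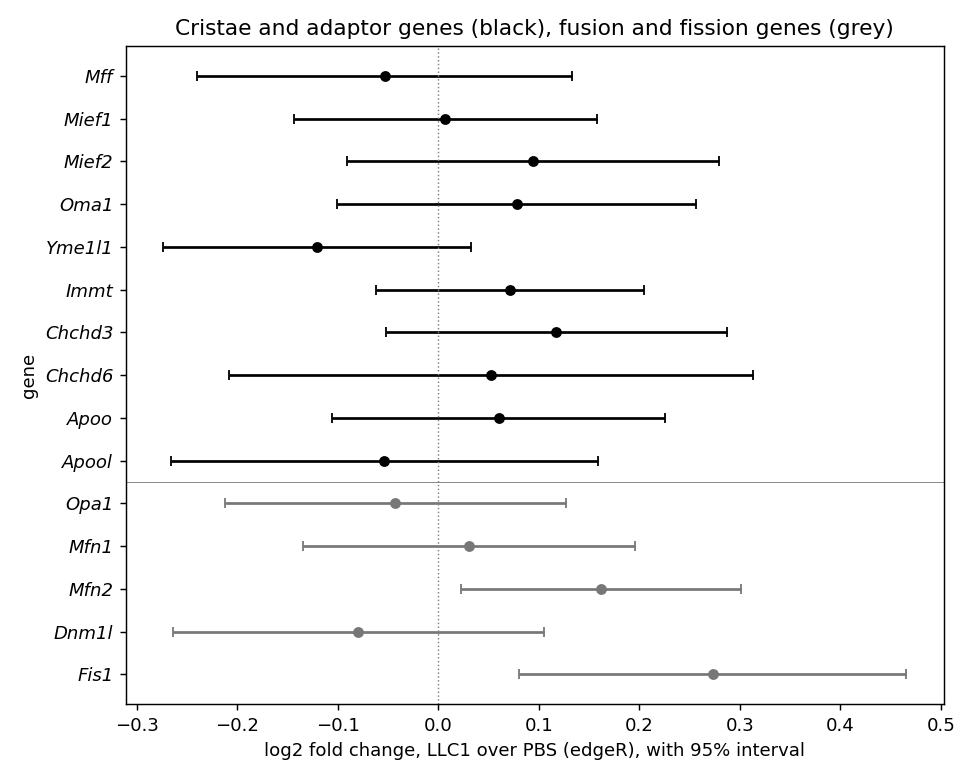
Log2 fold change of LLC1 over PBS mice from edgeR (x axis) for each gene (y axis). Points are estimates, whiskers are 95% intervals, and a line separates the 10 cristae and adaptor genes (black) from the fusion and fission genes (grey). Each black interval crosses 0, with estimates from -0.12 for Yme1l1 to 0.12 for Chchd3, and among the grey genes the intervals of Mfn2 and Fis1 lie above 0.

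Levels of different genes can be set side by side only per length, so CPM were divided by the deposited gene length in kb. In the PBS mice 3 MICOS subunits led, Chchd3 at 140.0 ± 12.2, Immt at 117 ± 5.14 and Apoo at 63.6 ± 5.47 CPM per kb (SD, n = 4 each). Their ranges did not overlap with those of their neighbors in the order. Next came Mief2 (16.4), Oma1 (15.5), Mff (11.7), Apool (11.4), Yme1l1 (9.79) and Chchd6 (8.16 CPM per kb), in which each gene's range overlapped with that of the next. With this length some genes farther apart in the order could be told apart, since the lowest Mief2 mouse (14.34 CPM per kb) lay above the highest Mff mouse (14.00) and the lowest Oma1 mouse (13.24) above the highest Yme1l1 mouse (10.27). Mief1 was lowest at 5.26 CPM per kb, with a range below that of Chchd6.

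The paralog pairs differed in level. Chchd3 stood 17.1 times above Chchd6, Apoo 5.58 times above Apool, and Mief2 3.12 times above Mief1 in CPM per kb of PBS mice. The levels depend on the length used. The deposited length was shorter than the annotated exon bases for Chchd6 (1126 against 2529), Immt (4964 against 11353) and Mief1 (5541 against 8106). The longest Chchd6 transcript has 2140 bases. With the longest annotated transcript in place of the deposited length, 8 of the 10 levels moved by more than 1 SD between mice, and these 3 ratios became 61.1, 4.03 and 3.12. The top 3 genes kept their order, while Mff moved from the 6th to the 4th place (29.1 CPM per kb) and Chchd6 from the 9th to the 10th (4.30 CPM per kb). With this length the order of Mff and Mief2 reversed, as every PBS mouse had Mff at 26.1 CPM per kb or more and Mief2 at 18.5 or less, and the ranges of Oma1 and Yme1l1 overlapped.

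**Figure D4:**
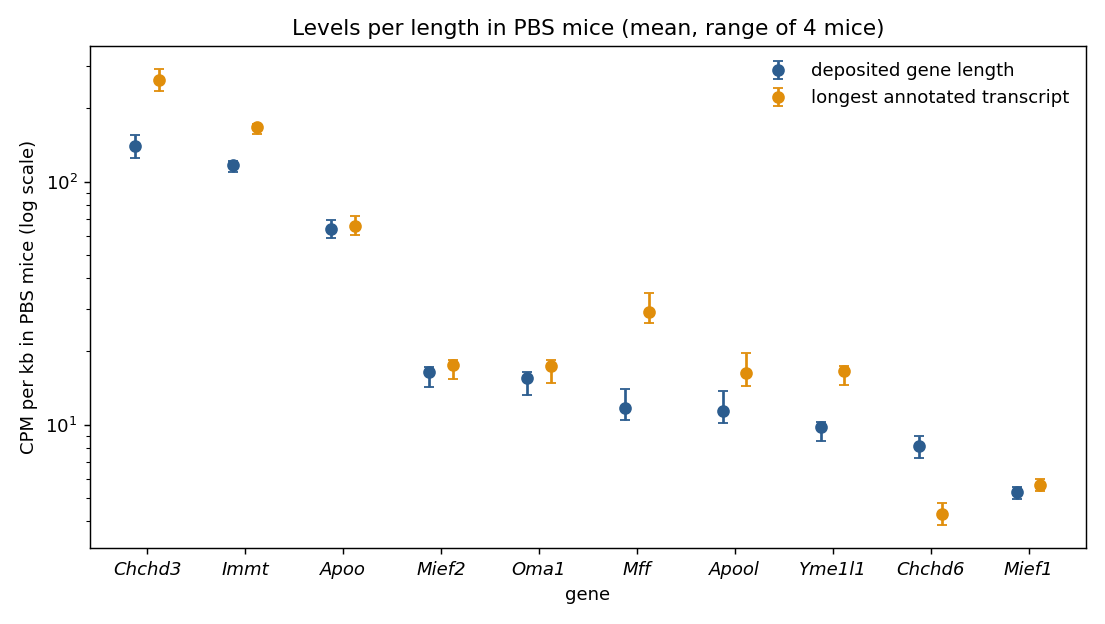
CPM per kb in the 4 PBS mice (y axis, log scale) for each gene (x axis, in descending order by deposited length). Points are means and whiskers are the lowest and highest mouse, for the deposited gene length (blue) and for the longest annotated transcript (orange). Chchd3, Immt and Apoo lie above the rest with either length, from 63.6 to 140.0 CPM per kb with the deposited one.

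The starts of Chchd3 and Chchd6, the pair that differed most in level, are shown with the 250 bases before each, from RefSeq on GRCm38.p6, both on the minus strand. Capitals mark CCGGAAG, the core recognised by ETS factors, which was searched on both strands. It occurs in the Chchd3 window (chr6:33060261-33060510) and not in that of Chchd6 (chr6:89595653-89595902).
Chchd3: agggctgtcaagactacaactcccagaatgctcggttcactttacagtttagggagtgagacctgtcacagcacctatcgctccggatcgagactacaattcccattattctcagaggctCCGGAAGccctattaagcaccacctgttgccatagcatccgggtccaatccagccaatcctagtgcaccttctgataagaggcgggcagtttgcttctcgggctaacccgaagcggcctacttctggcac
Chchd6: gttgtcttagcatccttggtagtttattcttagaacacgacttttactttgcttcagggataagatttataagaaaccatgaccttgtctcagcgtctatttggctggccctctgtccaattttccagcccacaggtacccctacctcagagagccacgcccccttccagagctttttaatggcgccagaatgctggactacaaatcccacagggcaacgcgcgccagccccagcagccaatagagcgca
All 10 genes matched at least 1 promoter of the reference set, and 4 of them (Chchd3, Immt, Mief1 and Yme1l1, the last with 2 matches) held CCGGAAG, against 6.91% of 32851 windows of the same length. Apoo and Mff matched more than 1 promoter, and the 6.91% is a share of windows, not of genes. The NRF1 core GCGCATGC (2.26% of windows) and the estrogen-related receptor element TCAAGGTCA (0.387% of windows) were found in none of these genes' windows. In the other paralog pairs, CCGGAAG was held by Mief1, the lower of its pair per kb, and not by Mief2, Apoo or Apool. These matches describe letters only and say nothing of binding or of level.

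The genes around this set in the same pathways were read from 6 further lists with 67 genes, of which 64 were tested. One of them, Spg7, was called higher (1.56%, against 4.12% of all genes) and none lower (against 4.61%), and 14 had an unadjusted p under 0.05 (21.9%, against 25.5%), 11 of them higher and 3 lower. Of the 64 log2 fold changes 40 were above 0, with a median of 0.05. Every LLC1 mouse lay above every PBS mouse for 10 genes (15.6%, against 8.89% of all genes) and below for 0 (against 8.27%). With DESeq2 the calls rose to 3 in the protease and scaffold list and to 1 each in the lists of GTPases with Fis1, other regulators and ATP synthase subunits.

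Spg7 encodes paraplegin, a subunit of the m-AAA protease, which like Yme1l1 lies in the inner membrane but faces the matrix (chromosome 8, 123062942 to 123097760). It was at 131, 139, 122 and 136 CPM in the LLC1 mice and at 106, 103, 118 and 106 CPM in the PBS mice. The lowest LLC1 mouse lay above the highest PBS mouse, and the means were 132 ± 7.59 and 108 ± 6.44 CPM. The log2 fold change was 0.29 (SE 0.07, edgeR FDR = 0.0227). The call was lost when LLC1-2 (edgeR FDR = 0.0530), LLC1-3 (0.0805), LLC2-2 (0.0670) or PBS1-3 (0.0902) was left out, and with scaling to total counts only (0.110), where the log2 fold change was 0.23.

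By list, 1 of 12 inner membrane proteases and scaffolds was called, with 11 of 12 log2 fold changes above 0 and a median of 0.10. Of 12 MICOS partners and import factors 0 were called and 10 lay above 0, with a median of 0.11. For 18 other fission and fusion regulators tested, 0 were called and 8 lay above 0 (median -0.0038). Of 11 cardiolipin genes tested 0 were called and 3 lay above 0 (median -0.04), and of 6 ATP synthase dimer subunits 0 were called and 5 lay above 0 (median 0.06). Of the GTPases and Fis1, the partners of the adaptors and proteases, 0 of 5 were called, and 1 was called higher with DESeq2, with the filter of 1 count in any mouse, with gene length offsets and without PBS2-5. The log2 fold change was -0.08 for Dnm1l (SE 0.08, edgeR FDR = 0.596) and -0.04 for Opa1 (SE 0.08, edgeR FDR = 0.773). It was 0.03 for Mfn1 (FDR = 0.837), 0.16 for Mfn2 (FDR = 0.137, groups without overlap) and 0.27 for Fis1 (FDR = 0.0768), all from edgeR's quasi-likelihood test.

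**Figure D5:**
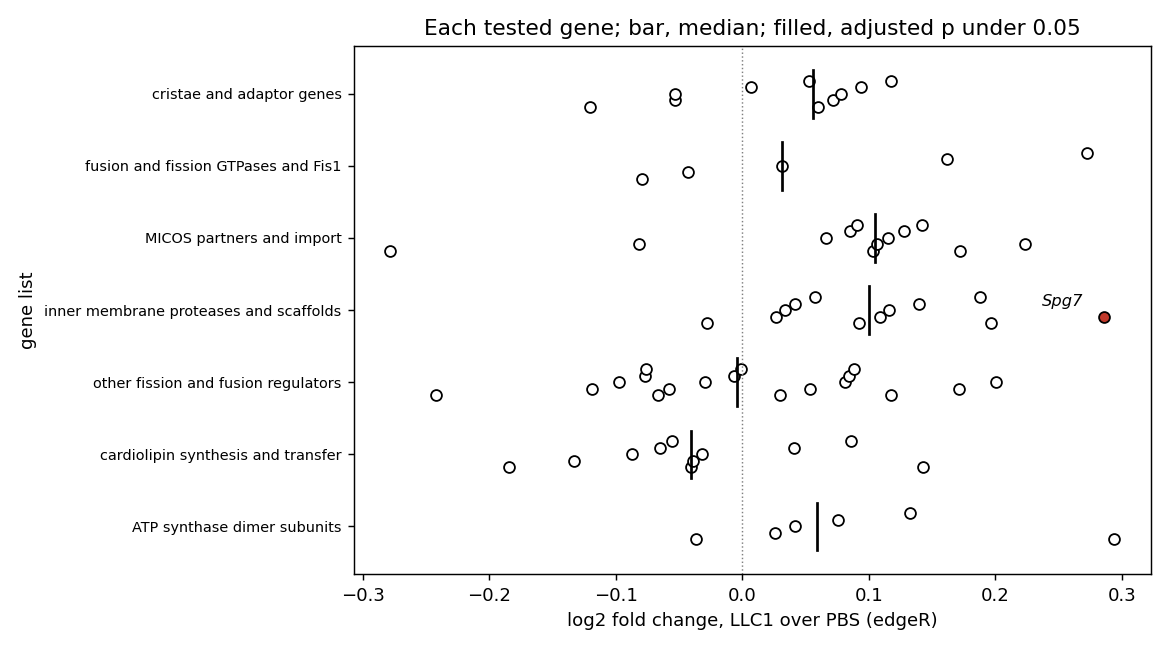
Log2 fold change of LLC1 over PBS mice from edgeR (x axis) for each tested gene of 7 lists (y axis). Circles are genes, black bars are list medians, and a filled circle marks a gene with an FDR under 0.05. Spg7, at 0.29, is the only filled circle, and the 10 cristae and adaptor genes have a median of 0.06.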

How the data were processed

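Total ventricular RNA from 8 mice was isolated with a miRNeasy kit and sequenced as TruSeq RNA v2 libraries, 150-base paired-end reads. The authors deposited raw counts of reads per gene, without normalization. The submitters' processing notes name CASAVA, STAR, featureCounts and mm10, while the annotation, the strand setting and the handling of reads with several matches are not given in the sources used here. Reads were not analysed here.

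Groups came from the stated treatment. Only the code 1-3 occurs in both groups, on different animals, so the comparison was unpaired. Counts were filtered with filterByExpr, scaled with TMM factors and tested with the quasi-likelihood F-test of edgeR 4.0.16 in R 4.3.3, two-sided, with Benjamini-Hochberg adjustment and a threshold of 0.05. Single genes were also compared by an exact permutation test of log2 CPM. Outlying mice were sought with Dixon's test. Principal components used log2 CPM with a prior count of 2. Alternatives were DESeq2 1.42.0, limma-voom (limma 3.58.1), robust empirical Bayes, upper-quartile factors, total counts only, a filter of 1 count in any mouse, a filter of 10 counts in every mouse, a covariate for the code's first number, gene length offsets (loess span 0.3), the longest transcript for levels per length, and each mouse left out. The sum of Apoo and Apoo-ps counts was added after seeing the data. Similar transcripts were sought with BLAST 2.17.0 at 97% identity or more over at least 150 bases. Gene models were from GENCODE M21, which has 8 of the 10 genes at the deposited coordinates (not Immt and Mief1). Other steps used Python 3.11.15 (scipy 1.17.1, pandas 2.3.3, matplotlib 3.10.9, numpy 2.4.6), and the fit was tested on simulated data.

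The 10 genes, the 6 further lists and the marker lists were chosen with earlier results of these data known. All 10 genes, Opa1, Mfn1, Mfn2, Dnm1l, Fis1 and any called gene of the 6 lists were named, the rest counted. Mtfr2, Gdap1 and Prelid3a had too few counts to be tested.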

Additional observations from a re-analysis of the deposited data

Results flagged for a closer look

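In 4 of 44 groups of 4 mice tested, 1 mouse lay far from the other 3 by Dixon's test, where chance flags about 1 group in 20. For Mief2, LLC2-2 was at 54.4 CPM against 44.8 to 46.4 CPM in the other LLC1 mice. Also for Mief2, PBS1-1 was at 39.0 CPM against 46.1 to 46.7 CPM in the other PBS mice. For Oma1, PBS2-5 was at 28.4 CPM against 34.7 to 35.3 CPM, and for Yme1l1 the same mouse was at 68.5 CPM against 80.6 to 82.3 CPM. The Oma1 to Yme1l1 ratio of PBS2-5, 0.415, was not set apart in this way.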

How the results depend on the processing

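Of the 10 genes, 0 were called higher and 0 lower under any alternative. In 171 refits of single genes the direction turned 11 times, in Mff, Mief1, Chchd6 and Apool, and never in the other 6. With scaling to total counts only, the log2 fold change was -0.046 for Mief1 and -0.0063 for Chchd6. With gene length offsets it was 0.038 for Mff and -0.018 for Chchd6. Over all alternatives that kept the 8 mice, the log2 fold change ran from -0.10 to 0.038 for Mff, -0.046 to 0.073 for Mief1, 0.038 to 0.14 for Mief2, 0.025 to 0.093 for Oma1, -0.17 to -0.033 for Yme1l1, 0.018 to 0.13 for Immt, 0.066 to 0.15 for Chchd3, -0.018 to 0.086 for Chchd6, 0.0041 to 0.075 for Apoo and -0.11 to -0.013 for Apool. When single mice were left out, the log2 fold change ran from -0.11 to 0.043 for Mff, from -0.027 to 0.031 for Mief1, from -0.029 to 0.13 for Chchd6 and from -0.11 to 0.048 for Apool, where the positive ends of Mff and Apool were those without PBS1-1. Over all genes, those called higher numbered 225 with total counts only, and 212 (without PBS1-3) to 908 (without PBS1-1) with a mouse left out. Those called lower numbered 330 (without PBS1-3) to 1041 (without PBS1-1). Leaving out LLC1-2, LLC1-3, LLC1-5 or LLC2-2 also lowered both counts by over 1.5 times, and leaving out PBS2-1 lowered the count of higher genes to 365. For the other 6 genes the values with a mouse left out ran from 0.017 to 0.12 (Mief2), 0.0019 to 0.10 (Oma1), -0.19 to -0.096 (Yme1l1), 0.037 to 0.083 (Immt), 0.064 to 0.17 (Chchd3) and 0.019 to 0.11 (Apoo). The ratio differences were recomputed 48 times, each with a mouse left out. The Oma1 to Yme1l1 difference in log2 ratio ran from 0.16 to 0.22, while that of Mff to Mief1 turned from -0.053 to 0.012 without PBS1-1 and that of Chchd6 to Chchd3 from -0.067 to 0.033 without PBS2-5. The difference for Mief2 to Mief1 fell from 0.088 to 8.6e-05 without PBS1-1, and that for Chchd3 to Immt ran from 0.0045 to 0.093. In the further lists, calls were gained among MICOS partners without PBS1-1 (2 higher) and without PBS2-5 (1 higher, 1 lower), among cardiolipin genes with gene length offsets (1 higher, 1 lower), among other regulators with gene length offsets (2 higher), with the covariate (1 lower) and without PBS2-5 (1 lower), among proteases and scaffolds with gene length offsets (2 in place of 1), and among ATP synthase subunits with the filter of 1 count in any mouse and without PBS2-5 (1 higher each). The causes were not tested. No paired analysis was possible because the groups share only 1 replicate code. Chchd6 had the lowest depth of the 10 genes, with 96 to 194 counts.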
